A study of Danio rerio with 4 samples.

Results

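The comparison described here sets the eyes of lrp5-/- zebrafish (Danio rerio) against the eyes of wildtype zebrafish, with 1 Affymetrix array on each side. Its members are the genes whose log2 signals differed by 1 or more, a 2-fold difference, between those arrays: 70 of 10426 measured genes, among 19260 genes with a single symbol in the array annotation. A gene with several probe sets was read from the brightest on average over the 4 arrays of the series, and a gene counted as measured where the higher of the 2 arrays compared reached 6.57, the median of all named values. The other 2 arrays of the series, from eys-/- homozygotes and from fish with 1 mutant copy of each gene (eys+/-; lrp5+/-, the double heterozygotes), are used only to place each member among all 4 readings. All fish were 3.5 months old after fertilisation and of mixed sex, and whole eyes were taken. The labels give neither the lesion in lrp5 or eys, nor the number of fish behind an array, nor the hour of sampling. With 1 array a side there is no spread between fish, so p-values are left out, and the differences below are log2 differences between single arrays, lrp5-/- minus wildtype unless another pair is named.

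Lrp5 is a single-pass membrane protein that acts with Frizzled receptors as a co-receptor for Wnt ligands. In the retina of mammals it also passes on the signal of Norrin, a ligand unrelated in sequence to Wnts, through Frizzled4 and Tspan12 to beta-catenin, and retinal vessels depend on this signal. In people, variants of the LRP5 gene cause familial exudative vitreoretinopathy, in which the retinal periphery lacks vessels, and disorders of bone density. Whole eyes hold the retina, pigment epithelium, lens, cornea, sclera, blood vessels and remnants of eye muscle, so fewer cells of a type and less RNA per cell cannot be told apart in these readings.

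The tissue label was checked against defining markers. The rod transducin gene gnat1 read 12.56 in wildtype and 12.44 in lrp5-/-, the cone transducin gene gnat2 12.44 and 12.48, the lens alpha-crystallin gene cryaa 11.27 and 11.38, and the pigment epithelium isomerase gene rpe65a 11.31 and 11.91. All these lay far above the array medians, which ran from 5.03 to 5.06 over the 4 arrays. Over all 75212 probe sets the correlation between any 2 arrays lay between 0.978 and 0.983. For lrp5-/- against wildtype the robust SD of the difference over measured genes was 0.198.

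The mutated gene was read by 1 probe set. Its signal was 7.39 on the wildtype array, 7.27 for eys-/-, 7.17 for lrp5-/- and 6.92 for the double heterozygote, a difference of -0.22 for the homozygote. This is under 2-fold, and the lowest of the 4 readings came from the double heterozygote. The position of the probe set relative to the lesion is unknown here, so the reading checks no label. In RefSeq gene order (assembly GRCz12tu) lrp5 lies on chromosome 25, and the 20 measured genes nearest to it, 10 on each side, differed by -0.54 to 0.43 with a median of -0.06, none of them by 2-fold.

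Of the measured genes, 41 were higher in lrp5-/- by 2-fold or more, which is 0.393%, and 29 were lower, which is 0.278%. Together they are 0.671% of those measured, and each count of list genes past 2-fold given below stands beside these shares. Sorted by function, the members with a gene name fell into 5 activity-responsive regulators, all higher; 7 genes of the circadian clock, 4 higher and 3 lower; 7 genes of photoreceptors, visual cycle and retina, 4 higher and 3 lower; 6 of vessels, blood and muscle, 1 higher and 5 lower; 9 of matrix, junctions and epithelia, 6 higher and 3 lower; 11 of metabolism and transport, 3 higher and 8 lower; and 5 others, 3 higher and 2 lower. The remaining 20, of which 15 were higher and 5 lower, carry clone-style or locus names. This sorting was made by hand once the members were known. The sizes were mostly modest: 16 members differed by 3-fold or more and 6 by 4-fold or more. In 29 of the 70 the lower of the 2 readings fell short of the measured level of 6.57, so that the gene was counted through its higher array and the size is uncertain. Among higher members with a gene name these were gadd45ga, gch2, fosb, znfl1g, npas4a, nr1d4b, frmd5b and lamb3. Among lower ones they were abcg4b, cbr1l, cldn11b, opn6b, bmal1a, pcdh2g28, apold1a, tubb4bl, kcnk5a and tcnbb. A total of 22 members lay within 0.1 of the threshold, and 29 genes fell short of it by at most 0.1. Just inside were, among others, acsl3a at 1.01, per1a at 1.01 and mir726 at -1.01, and just outside were, among others, the photoreceptor nuclear receptor gene nr2e3 at 0.99, the clock activator gene bmal1b at -0.98 and the nuclear receptor gene nr2f6b at -0.98.

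**Figure D1:**
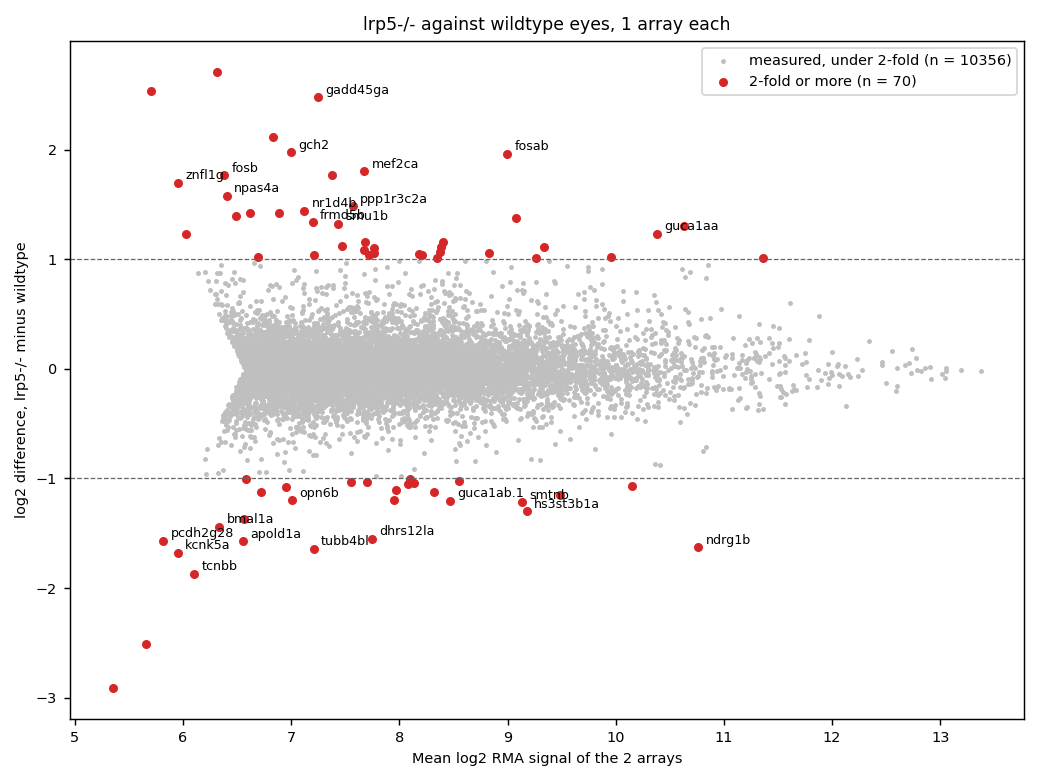
Log2 difference between the lrp5-/- and the wildtype array (vertical axis) against the mean log2 RMA signal of both (horizontal axis) for the 10426 measured genes. Red points are the 70 members past the dashed 2-fold lines, and names mark the 12 highest and the 12 lowest members that have a gene name, from gadd45ga at 2.48 to tcnbb at -1.87.

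The 5 members sorted as activity-responsive regulators were gadd45ga, fosab, mef2ca, fosb and npas4a, at 1.58 to 2.48; the first 2, fosb and npas4a are on the list of immediate early genes and mef2ca is not. The highest member with a gene name was gadd45ga, a stress-sensor gene induced by cell damage and by neuronal activity, which read 6.0 on the wildtype array, 6.40 for eys-/-, 8.48 for lrp5-/- and 8.27 for the double heterozygote. The lrp5-/- and double heterozygote arrays were high and the other 2 lay below the measured level of 6.57, so the size of the difference is uncertain. The gene fosab, which encodes zebrafish c-Fos, a subunit of the AP-1 transcription factor, read 8.01 in wildtype and 8.01 in eys-/-, then 8.35 in the double heterozygote and 9.98 in lrp5-/-. Its relative fosb read 5.50, 5.16 and 4.97 in wildtype, eys-/- and the double heterozygote and 7.26 in lrp5-/-. Both Fos genes were therefore high on the lrp5-/- array alone, fosab by 3.9-fold over wildtype, whereas fosb lay below the measured level on the other 3 arrays and is given no fold.

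Npas4, a transcription factor that depolarisation induces in neurons, gave a different order. Its gene npas4a read 5.61 in wildtype and 5.62 in eys-/-, but 7.19 in lrp5-/- and 7.12 in the double heterozygote, high on those 2 arrays and below the measured level on the others. The gene mef2ca, of a transcription factor known in muscle and neurons, read 6.77 on the wildtype array, 7.07 for eys-/-, 8.58 for lrp5-/- and 9.71 for the double heterozygote, so that lrp5-/- lay 3.49-fold above wildtype and below the double heterozygote.

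Of 39 measured genes on a list of immediate early genes, 5 were higher by 2-fold (gadd45ga, fosab, fosb, npas4a and the clock gene per1a), 0 were lower and 34 were neither. Over all measured genes 0.393% were higher by 2-fold. Of the 5, gadd45ga, fosb and npas4a read below the measured level in wildtype. They entered the list only through the lrp5-/- array, where they were high. The lists were also chosen with earlier results of these data known, so the shares are not a test. The list's median difference was 0.20, with 31 members above 0 and 8 below, beside a median of -0.00014 over all measured genes. With the mean of the other 3 arrays as reference the list's median was 0.30. Several members fell just short: klf4 differed by 0.97, the zinc finger gene egr1 by 0.94, the cytokine signalling inhibitor socs3a by 0.94, klf2b by 0.93 and the orphan nuclear receptor gene nr4a1 by 0.82. For egr1 the readings were 9.08 on the wildtype array, 8.52 for eys-/-, 10.02 for lrp5-/- and 9.92 for the double heterozygote. Not every member was high: the AP-1 gene jun differed by -0.07, fosl2 by -0.11 and the stress-induced phosphatase subunit gene ppp1r15a by -0.58.

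The second group of members belongs to the circadian clock. In vertebrates the Clock and Bmal proteins activate per, cry, nr1d and ciart genes through E-boxes, Per and Cry proteins repress that activation, and Rev-erb proteins (the nr1d genes) and ROR proteins compete to repress or activate bmal and nfil3 genes. Among genes that Clock and Bmal activate, the Rev-erb gene nr1d4b read 6.40 on the wildtype array, 5.42 for eys-/-, 7.85 for lrp5-/- and 8.82 for the double heterozygote. Its relative nr1d4a read 7.13, 6.28, 8.22 and 9.01 in the same order of arrays. The repressor gene ciarta (Chrono) read 8.79, 7.94, 9.90 and 10.24, and per1a read 8.75, 7.82, 9.77 and 10.63. These 4 genes share 1 order, with eys-/- lowest, then wildtype, then lrp5-/- and the double heterozygote highest, and their differences between lrp5-/- and wildtype ran from 1.01 to 1.45. The largest is that of nr1d4b, whose wildtype reading of 6.40 lay below the measured level, so its size is uncertain.

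On the lower side stood bmal1a, which encodes a core activator, at 7.06 on the wildtype array, 7.02 for eys-/-, 5.61 for lrp5-/- and 4.83 for the double heterozygote. Its lrp5-/- reading lay below the measured level, so the size of its difference is uncertain. The ROR family gene rorcb read 8.55, 8.41, 7.35 and 7.04 in the same order. In both genes wildtype and eys-/- lay close together and the double heterozygote lay lowest. The bZIP repressor gene nfil3-5 read 8.07 in wildtype against 6.99, 7.04 and 6.57 in eys-/-, lrp5-/- and the double heterozygote, so that here the wildtype array stood apart and lrp5-/- did not.

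Over the whole clock list, 4 of 49 measured genes were higher, 3 lower and 42 neither, beside 0.393% higher and 0.278% lower over all measured genes. Among the genes past 2-fold, nr1d4b and bmal1a were counted only through the array where they were high. This list too was chosen with earlier results known, so the shares are not a test. In the list 25 lay above 0 and 24 below, and the median was 0.04 (0.01 to 0.16 over the settings tried). Just short of 2-fold on the higher side were ciartb at 0.98, the E-box repressor gene bhlhe41 at 0.91, cry2 at 0.91 and the PAR bZIP factor gene dbpb at 0.89. On the lower side bmal1b differed by -0.98, the activator genes clockb and clocka by -0.53 and -0.49 and npas2 by -0.46. Genes of the list whose difference was small included per3 at -0.04, cry1a at -0.01 and nr1d2b at -0.02. All of the 4 measured genes of the Clock, Npas2 and Bmal1 activators other than bmal1a were thus below 0, none of them by 2-fold. The labels name a cycle of light and dark for housing and no hour of sampling.

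**Figure D2:**
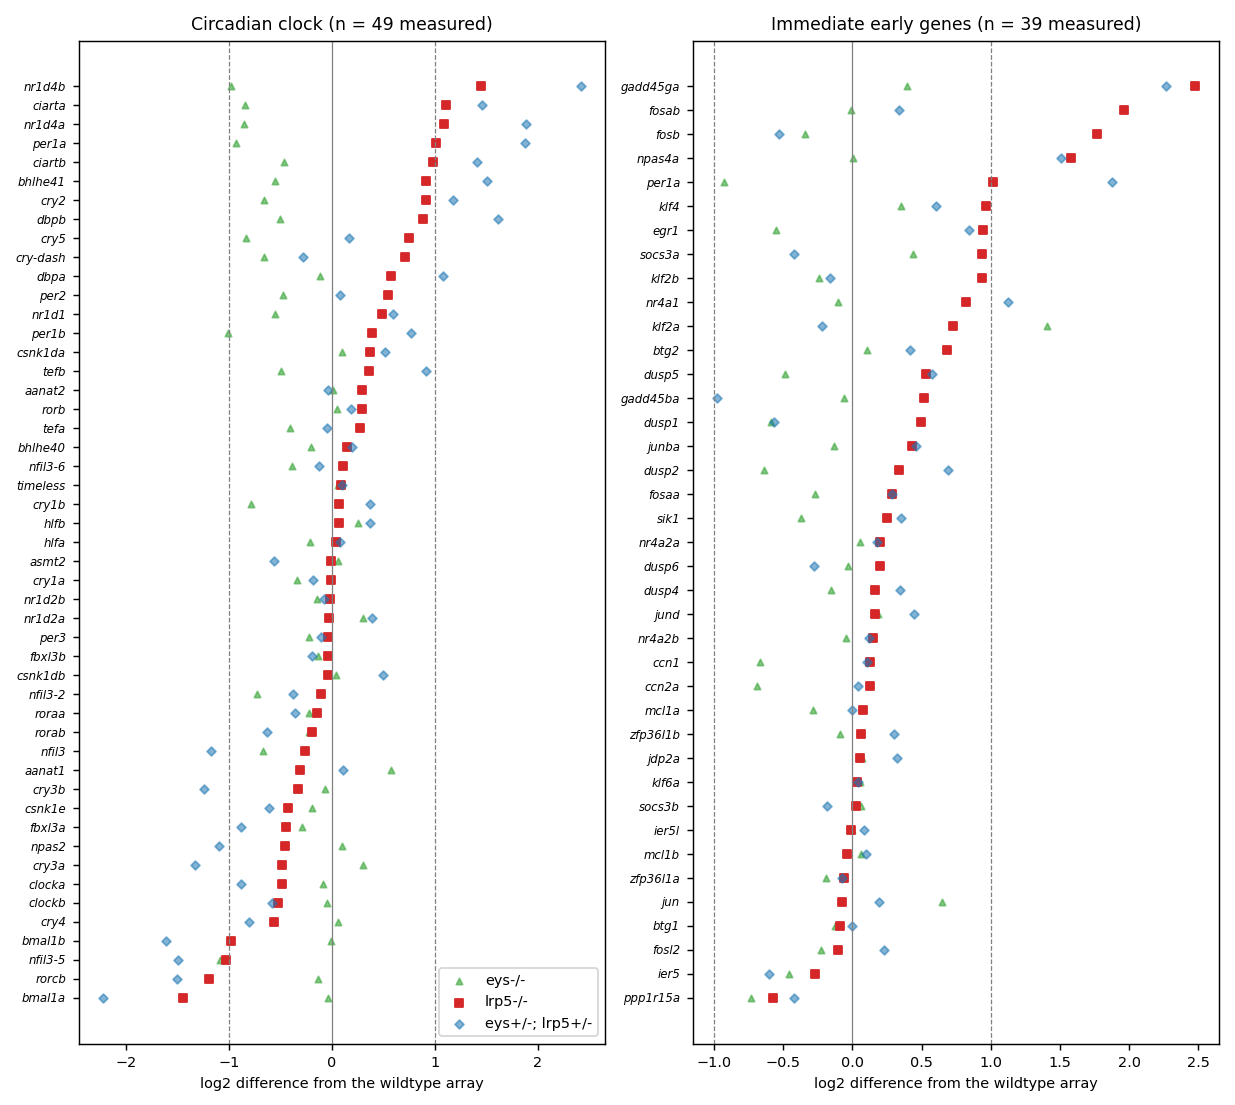
Log2 difference from the wildtype array (horizontal axes) for the measured genes of the clock list (left, 49 genes) and the immediate early list (right, 39 genes), ordered by the lrp5-/- value. Squares are lrp5-/-, triangles eys-/- and diamonds the double heterozygote, all set against the same wildtype array; dashed lines mark 2-fold, which lrp5-/- passes with 7 clock genes and 5 early genes.

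Photoreceptor genes among the members centred on the guanylate cyclase activating proteins, calcium sensors that restart cyclic GMP synthesis after light. The gene guca1aa read 9.77 on the wildtype array, 8.84 for eys-/-, 11.0 for lrp5-/- and 11.24 for the double heterozygote. For guca1g, a form known in zebrafish cones, the readings were 7.83, 7.17, 8.94 and 8.97. Another family member went the other way: guca1ab.1 read 9.07, 9.53, 7.86 and 7.11. Members past 2-fold in both directions thus sat in 1 gene family, with guca1d at 0.93 and guca1ab.2 at 0.70 between them. Members of this family resemble each other in sequence, so their probes could share signal and these values are uncertain.

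Other retinal members were few. The non-visual opsin gene opn6b read 7.61 in wildtype and 8.12 in eys-/-, with 6.41 in lrp5-/- and 7.29 in the double heterozygote, and was lowest in lrp5-/-. The gene lratb.2 belongs to the family of lecithin retinol acyltransferases, which make the retinyl esters that feed the visual cycle, and it read 7.66 on the wildtype array, 8.28 for eys-/-, 8.71 for lrp5-/- and 8.40 for the double heterozygote. In ubap1lb, whose human relative is linked to retinal dystrophy, eys-/- was lowest at 6.74, wildtype read 7.69, the double heterozygote 8.49 and lrp5-/- 8.73. The microRNA gene mir726 read 8.60, 8.57, 7.59 and 6.98 in wildtype, eys-/-, lrp5-/- and the double heterozygote. In RefSeq order the next measured genes are the red opsin genes opn1lw1 and opn1lw2, which differed by -0.75 and -0.32. The double heterozygote differed from wildtype by 0.19 for opn1lw1, -0.52 for opn1lw2 and -1.62 for mir726. For eys-/- these values were 0.45, 0.16 and -0.03.

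Most of the phototransduction cascade stayed under 2-fold, though the cone genes were spread both ways. Of 36 measured cone genes 1 was higher and 1 lower (guca1g and guca1ab.1), with a median of -0.06 and quartiles of -0.27 and 0.45. In that list 16 genes lay above 0 and 20 below. The channel genes cnga3a, cngb3.1 and cngb3.2 differed by 0.78, 0.44 and -0.65, and the kinase gene grk7a by 0.63. Of 32 rod genes 1 was higher (guca1aa) and 0 lower, with a median of -0.04. The mean level of the rod list was 10.49 in wildtype and 10.52 in lrp5-/-, a difference of the other sign. Green opsin genes lay below 0, with opn1mw4 at -0.87, opn1mw1 at -0.84 and opn1mw3 at -0.70. Copies within this family resemble each other, so their probes could share signal and these values are uncertain. The ultraviolet opsin gene opn1sw1 differed by -0.04 and the blue opsin gene opn1sw2 by -0.25. Over 25 genes of the visual cycle and pigment epithelium the median was 0.12, with lratb.2 higher and the short-chain dehydrogenase gene dhrs12la lower; its place on that list rests on its enzyme family. The isomerase gene rpe65a differed by 0.60.

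Given the known role of lrp5 in retinal vessels, vessel genes were read next. The gene apold1a, related to a mammalian gene of activated endothelium, read 7.34 in wildtype, 7.70 in eys-/-, 7.19 in the double heterozygote and 5.77 in lrp5-/-, where it fell short of the measured level. Only the lrp5-/- array was low. The gene mmrn2a, of the endothelial matrix protein multimerin2, read 8.60 on the wildtype array, 8.43 for eys-/-, 7.55 for lrp5-/- and 7.24 for the double heterozygote, with the arrays that carry lrp5 mutations low and the other 2 high. Smoothelin, a protein of smooth muscle filaments, is encoded by smtnb, which read 9.74, 9.09, 8.53 and 8.20 in the same order as mmrn2a.

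As a list, 2 of 31 measured endothelial genes were lower (apold1a and mmrn2a), 0 were higher and 29 neither. Over all measured genes 0.278% were lower by 2-fold. Of the 2, apold1a was counted only through the wildtype array, where it was higher. The endothelial list was chosen with earlier results of these data known, so these shares are not a test. The list's median was -0.19, 23 members lay below 0 and 8 above, and the mean level of its members was 7.76 on the wildtype array, 7.52 for eys-/-, 7.57 for lrp5-/- and 7.56 for the double heterozygote. With the mean of the other 3 arrays as reference the median difference was -0.03. The general endothelial genes cdh5 (VE-cadherin), kdrl and tie1 differed by -0.23, 0.08 and -0.29, and the VEGF receptor gene kdr by -0.45. The barrier claudin genes cldn5a and cldn5b differed by -0.29 and -0.19, and plvapa and plvapb, of fenestrated vessels, by 0.39 and -0.02. For apold1b, the paralogue of apold1a, the difference was -0.07. The median was -0.05 over 20 genes of pericytes and smooth muscle, with smtnb the 1 lower member and 0 higher, and their median turned to 0.06 with the other 3 arrays' mean as reference. The share of endothelium in the samples was not tested.

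Angiogenic and hypoxia-response genes had a median of -0.22 over 29 measured genes, 22 of them below 0. Set against the other 3 arrays' mean, the median was -0.08. The only one past 2-fold was ndrg1b, of a family that hypoxia induces in mammals: it read 11.58 on the wildtype array, 10.53 for eys-/-, 9.95 for lrp5-/- and 8.83 for the double heterozygote. The wildtype array was the high one here, by more than 2-fold over each of the others. Differences of the vascular growth factor genes vegfaa and vegfab were -0.32 and -0.15, that of the placental growth factor gene pgfb -0.49 and that of the prolyl hydroxylase gene p4ha1b -0.77.

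Genes of the pathway in which lrp5 itself acts were not among the members. Over all measured genes 0.671% passed 2-fold, so lists this short could easily hold none. Of 7 measured Norrin and vitreoretinopathy genes, 0 passed 2-fold in either direction, and the median was 0.01, with both signs over the settings tried (-0.10 to 0.08). These 7 were lrp5 itself, ndp, jag1a, jag1b, ctnna1, ilk and rcbtb1. The Norrin gene ndp read 6.49 on the wildtype array, 6.55 for eys-/-, 6.67 for lrp5-/- and 6.39 for the double heterozygote, near the level needed to count as measured. The co-receptor gene tspan12, at 6.35 and 6.15 in wildtype and lrp5-/-, and the paralogue lrp6, at 6.43 and 6.31, did not reach that level. Of 8 measured Wnt ligands and secreted regulators, and of 44 measured Wnt receptors and intracellular components, 0 passed 2-fold, with medians of 0.07 and 0.02, which ran from 0.02 to 0.09 and from -0.04 to 0.04 over the settings tried. The largest values in the latter list were 0.41 for the Groucho corepressor gene tle3a and -0.43 for the kinase gene csnk1e. The genes axin2, lef1 and nkd1, which Wnt signalling raises in many tissues, differed by -0.04, -0.01 and 0.05.

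Among blood and muscle members, klf1, named for the erythroid factor of mammals, read 8.21 in wildtype, 8.31 in eys-/-, 8.17 in the double heterozygote and 7.18 in lrp5-/-, the 1 low array. Red blood cell genes as a list had a median of -0.04 over 15 (0.10 with the other 3 arrays' mean as reference) with klf1 the 1 lower member, and the haem synthesis gene alas2 differed by 0.54. The coagulation factor XIII gene f13a1a.1 read 6.69, 6.36 and 6.58 in wildtype, eys-/- and the double heterozygote and 7.73 in lrp5-/-. Myoglobin, the oxygen store of muscle, is encoded by mb, which read 10.06 in wildtype against 9.0, 8.90 and 9.13 in eys-/-, lrp5-/- and the double heterozygote, so that the wildtype array was high and the other 3 lay together.

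Of 36 measured skeletal muscle genes, 1 was lower (mb), 0 higher and 35 neither, 26 lay below 0, and the median was -0.23, with -0.15 when the reference was the other 3 arrays' mean. Their mean level was 7.75 on the wildtype array, 7.81 for eys-/-, 7.50 for lrp5-/- and 7.70 for the double heterozygote. The troponin gene tnnc2.2 differed by -0.79, the creatine kinase gene ckma by -0.70 and the actin gene acta1b by -0.67, but the sarcomere gene ldb3a by 0.08. How much eye muscle was left on the samples was not tested.

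Of the 9 matrix, junction and epithelial members 6 were higher and 3 lower, near the 41 higher and 29 lower among all 70 members. The gene lamb3, of a laminin chain in epithelial basement membranes, read 6.18 on the wildtype array, 6.54 for eys-/-, 7.20 for lrp5-/- and 7.72 for the double heterozygote. The desmosomal cadherin gene dsg2.1 read 6.91, 7.52, 8.03 and 8.49, the same order of arrays as lamb3. For slc4a11, a transporter gene mutated in a dystrophy of the human corneal endothelium, the readings were 7.84, 7.79, 8.91 and 9.31, with the double heterozygote again highest.

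The elastic fibre gene mfap2 was highest in lrp5-/-, at 8.29 against 7.23 in wildtype, 7.29 in eys-/- and 7.74 in the double heterozygote. So was the calpain protease gene capn9, at 8.23 against 7.20, 7.50 and 7.43, and so was frmd5b, of the FERM domain proteins that tie membrane to cytoskeleton, at 7.87 against 6.53, 6.56 and 6.74. On the list of fibrous matrix, cartilage and bone genes 26 of 30 lay above 0 and the median was 0.23, with 0 past 2-fold; col10a1a differed by 0.98, and with the other 3 arrays' mean as reference the median was -0.0024. Surface epithelium genes had a median of 0.18 over 42, also with 0 past 2-fold. Their largest values were 0.98 for agr1 and 0.98 for evpla on the one side and -0.96 for the keratin gene krt1-19e on the other.

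Lower members of this group included the claudin gene cldn11b, of tight junctions, at 7.28 in wildtype, 7.44 in eys-/-, 7.21 in the double heterozygote and 6.16 in lrp5-/-, where alone it was low. The gene lctlb, a relative of the mouse lens gene for lactase-like protein, read 10.69, 10.97 and 10.46 in wildtype, eys-/- and the double heterozygote and 9.62 in lrp5-/-. The heparan sulphate sulphotransferase gene hs3st3b1a read 9.83, 9.29, 8.52 and 7.83 in wildtype, eys-/-, lrp5-/- and the double heterozygote. Lens genes as a list, which does not include lctlb, differed little. Of 45 measured 0 passed 2-fold, and their median was 0.0049 (-0.01 to 0.05 over the settings tried).

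Among genes of metabolism and transport, gch2 was the highest. It encodes a GTP cyclohydrolase that starts the synthesis of pteridine pigments in zebrafish, and it read 6.01 on the wildtype array, 6.51 for eys-/-, 7.99 for lrp5-/- and 8.24 for the double heterozygote. The wildtype and eys-/- readings lay below the measured level. The rest of its pathway was not past 2-fold: of 17 measured pteridine and purine pigment genes gch2 was the 1 higher, 0 were lower and the median was 0.09 (-0.03 with the other 3 arrays' mean as reference), with pts at 0.37, spra at 0.09 and the paralogue gch1 at 0.19. The gene ppp1r3c2a, of a subunit that targets phosphatase to glycogen, read 6.83 on the wildtype array, 8.14 for eys-/-, 8.31 for lrp5-/- and 7.38 for the double heterozygote, and was the 1 member among 53 measured glycogen and glycolysis genes. For the acyl-CoA synthetase gene acsl3a the readings were 7.84 on the wildtype array, 8.26 for eys-/-, 8.85 for lrp5-/- and 8.58 for the double heterozygote, with wildtype lowest.

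The lowest member with a gene name was tcnbb, of a vitamin B12 binding protein, at 7.04 on the wildtype array, 5.36 for eys-/-, 5.17 for lrp5-/- and 7.85 for the double heterozygote. Both homozygotes were low. The potassium channel gene kcnk5a read 6.79, 7.43, 5.11 and 5.05, low in lrp5-/- and the double heterozygote. The gene dhrs12la read 8.52 in wildtype and 6.58, 6.97 and 6.39 in the other 3 arrays, with wildtype alone high.

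The malate dehydrogenase gene mdh1ab was high in eys-/- at 10.05 and in the double heterozygote at 9.48, read 8.88 in wildtype and was lowest in lrp5-/- at 7.75. The carbonyl reductase gene cbr1l read 7.50, 7.39, 6.42 and 7.06 in wildtype, eys-/-, lrp5-/- and the double heterozygote. The sterol transporter gene abcg4b read 7.08, 7.22, 6.08 and 6.41 in that order, and like cbr1l it was lowest in lrp5-/-. The disulphide isomerase gene tmx3a read 9.07, 9.0, 8.04 and 7.63, lowest in the double heterozygote. For tmx3a a second, dimmer probe set differed by only -0.25. Of 73 measured oxidative phosphorylation genes 59 lay above 0, with a median of 0.20 and 0 past 2-fold, and of 63 cytosolic ribosomal protein genes 54 lay below 0, with a median of -0.16 and 0 past 2-fold. With the other 3 arrays' mean as reference these medians were 0.05 and -0.07.

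Of the 5 other named members, paqr3b, of a Golgi receptor family, had the widest range over the 4 arrays: it read 8.30 on the wildtype array, 4.85 for eys-/-, 9.36 for lrp5-/- and 6.76 for the double heterozygote. Its second probe set differed by 0.11 between lrp5-/- and wildtype and read about the same on all 4 arrays, between 5.44 and 5.54. The splicing factor gene smu1b read 6.77, 6.12, 8.09 and 9.11. Its order had eys-/- lowest and the double heterozygote highest. The clock genes nr1d4b and per1a share that order, and so do guca1aa, guca1g and slc4a11, among others. The zinc finger gene znfl1g read 5.10 on the wildtype array, 5.86 for eys-/-, 6.80 for lrp5-/- and 6.76 for the double heterozygote. The clustered protocadherin gene pcdh2g28, of neuronal adhesion, read 6.60, 7.78, 5.03 and 6.85, with lrp5-/- alone low. The beta-tubulin gene tubb4bl read 8.03, 6.16, 6.39 and 9.08, with both homozygotes low. Its second, much dimmer probe set read 1.38, 1.17, 1.52 and 4.90 and differed by 0.14 between lrp5-/- and wildtype. The genes znfl1g, pcdh2g28 and tubb4bl belong to families of similar copies and are uncertain.

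**Figure D3:**
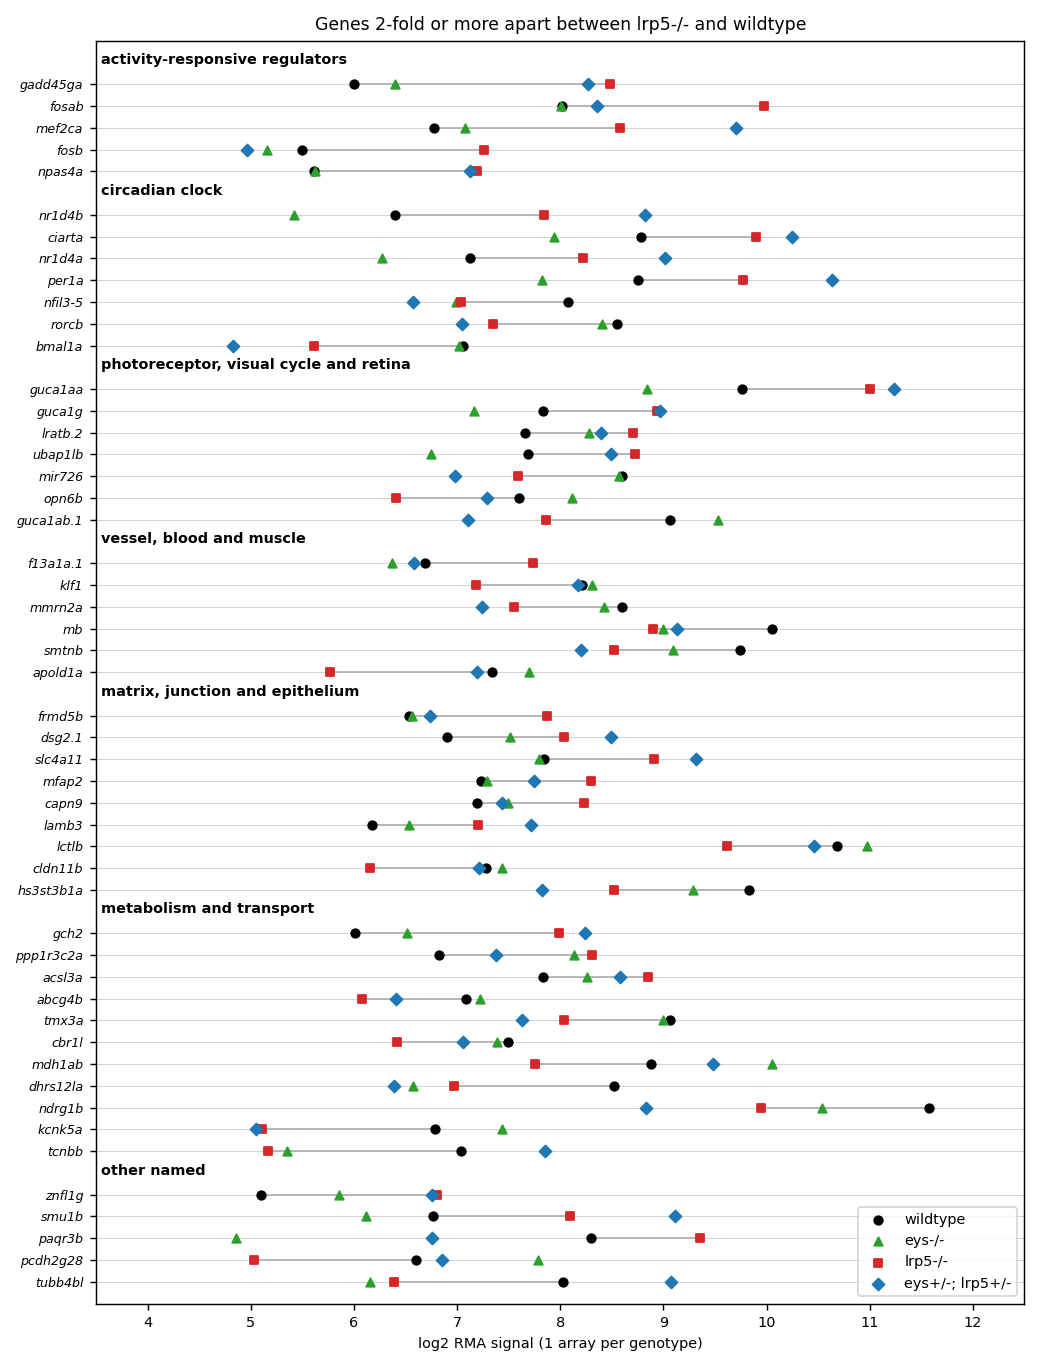
Log2 RMA signal (horizontal axis) of the 50 members with a gene name, grouped by function, with 1 symbol for each of the 4 arrays and a grey line joining wildtype and lrp5-/-. Both Fos genes, apold1a and cldn11b show lrp5-/- (red squares) away from the other 3 arrays, whereas ndrg1b, dhrs12la and nfil3-5 show wildtype (black circles) away from the other 3.

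The 20 members with clone-style or locus names ran from 1.01 to 2.72 on the higher side and from -2.91 to -1.04 on the lower side, which holds the extremes of the whole comparison. The highest, si:ch211-235f1.3, read 4.95 on the wildtype array, 3.86 for eys-/-, 7.67 for lrp5-/- and 3.59 for the double heterozygote, with lrp5-/- alone high. The lowest, zgc:171490, read 6.81, 8.97, 3.90 and 5.85 in the same order, with lrp5-/- lowest and eys-/- highest. Another, zgc:109982, read 5.77, 5.38, 7.89 and 8.31, with lrp5-/- and the double heterozygote high. In 4 of the 20, and in no member with a gene name, the lower reading lay below the median of its own array, so the sizes of those differences are uncertain.

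The 4 readings also show where the lrp5-/- and wildtype arrays stood among the others. In 15 members, 8 higher and 7 lower, the lrp5-/- array lay 2-fold or more from each of the other 3. Any measured gene with this pattern is a member by the rule, so the share of 0.144% over all measured genes is these same 15. Those with a gene name were fosab, fosb, frmd5b, f13a1a.1 and paqr3b on the higher side and apold1a, pcdh2g28, mdh1ab and cldn11b on the lower side. The other 6 have clone-style or locus names. In fosb, frmd5b, apold1a, pcdh2g28, cldn11b and several with clone-style or locus names, the lower reading fell below the measured level. These were counted only through the array where they were high, so their sizes are uncertain. For paqr3b the second probe set differed by only 0.11 between lrp5-/- and wildtype. In 5 members the wildtype array lay 2-fold or more from each of the other 3, and the share of 0.048% over all measured genes is likewise these same 5. Of these members 3 have a gene name, ndrg1b, dhrs12la and nfil3-5. In 37 members, 25 higher and 12 lower, the double heterozygote was also past 2-fold from wildtype in the same direction, and in 5 in the opposite direction. For eys-/- these counts were 10 and 7. Over all genes measured in each pair, 179 of 10434 passed 2-fold for the double heterozygote and 66 of 10435 for eys-/-. All these differences share the same wildtype array. By order alone, the lrp5-/- array was the highest or lowest of the 4, on its side of wildtype, in 38 members. The same held for 41.8% of all measured genes. The wildtype array was the extreme on the opposite side in 33 members, and in 49.8% of all measured genes. Since every member was chosen for a gap between lrp5-/- and wildtype, these counts only describe the members, and the shares are no background to test them against.

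Glucocorticoid targets, several of which are also on the early or clock lists, had a median of 0.22 over 22 measured genes, and 1 was higher, per1a. With the other 3 arrays' mean as reference that median was 0.06. The chaperone gene fkbp5 differed by 0.91 and klf9 by 0.78. For fkbp5 the readings were 7.0 on the wildtype array, 9.92 for eys-/-, 7.90 for lrp5-/- and 9.97 for the double heterozygote, so lrp5-/- lay between wildtype and the other 2 arrays.

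Lists of retinal neurons and glia held no member. The median was 0.15 over 25 amacrine and horizontal cell genes and 0.18 over 21 Muller glia genes, and with the other 3 arrays' mean as reference these were 0.06 and 0.09. It was 0.01 over 25 genes of retinal ganglion cells (0.02 to 0.09 in the other settings tried), -0.09 over 22 of bipolar cells (-0.11 to -0.05) and 0.06 over 35 of synapses (0.01 to 0.08). The filament gene gfap, which Muller glia raise after retinal injury, differed by 0.29, and the glutamine synthetase gene glulb by 0.49. Over 8 genes of microglia and macrophages the median was -0.17, with none past 2-fold, and with no filter on level, over all 29 genes read, it was 0.06. The 6 measured genes of antigen presentation and lymphocytes all lay below 0, with a median of -0.34, b2m at -0.51 and none past 2-fold. Another 19 genes of that list did not reach the measured level, and over all 25 the median was -0.11. The median was 0.12 over 15 genes of melanin pigment cells, -0.11 over 12 myelin genes and -0.01 over 13 proliferation genes, in each case with 0 past 2-fold. Over the settings tried these medians ran from 0.05 to 0.17, from -0.13 to 0.04 and from -0.02 to 0.20, so the last 2 have no settled sign.

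**Figure D4:**
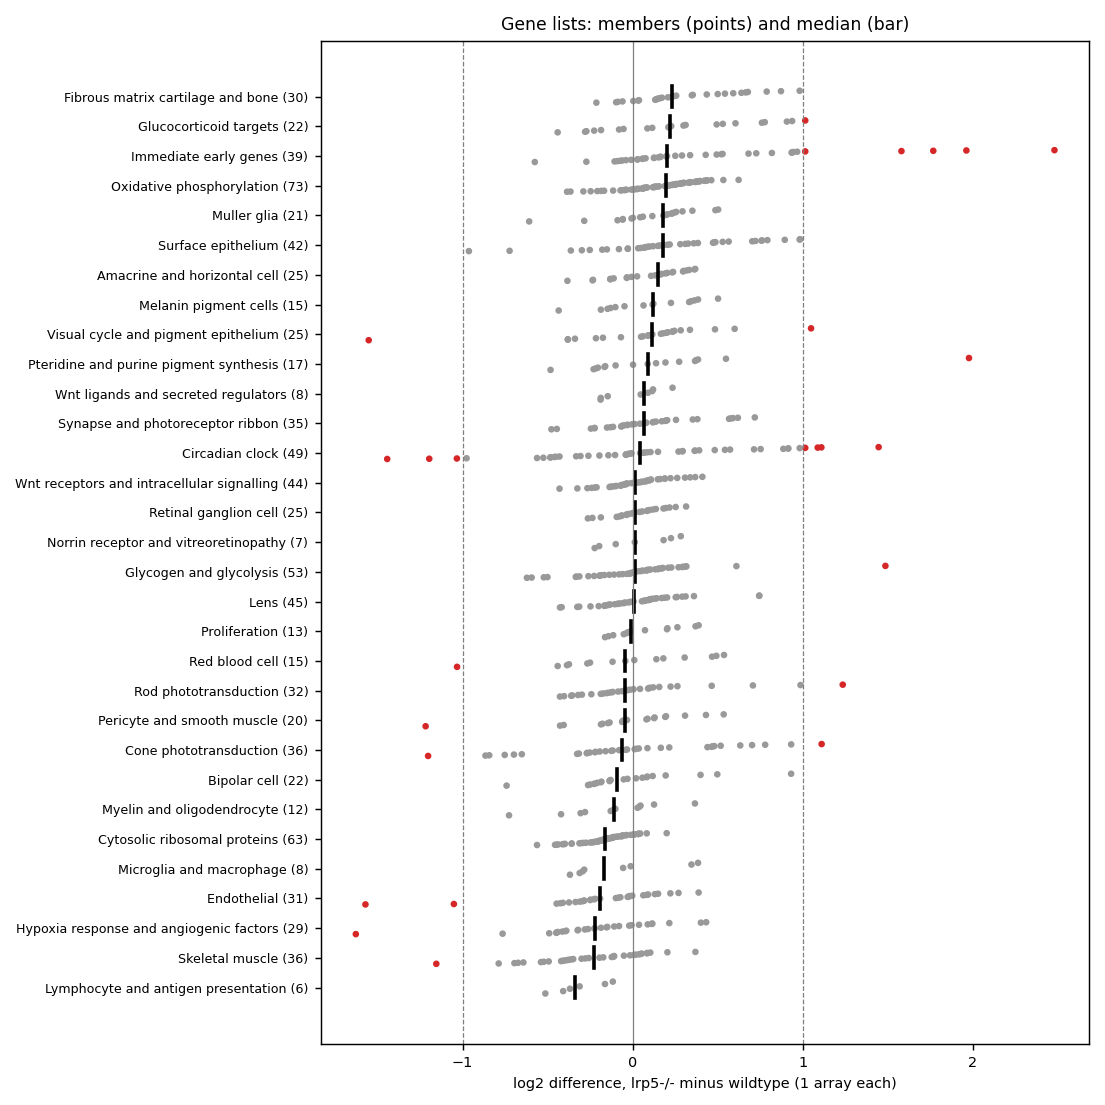
Log2 difference between the lrp5-/- and the wildtype array (horizontal axis) for the measured members of 31 gene lists, with the number measured in brackets. Points are genes, red where past the dashed 2-fold lines, and black bars are medians, which ran from -0.34 for antigen presentation and lymphocyte genes to 0.23 for fibrous matrix genes.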

How the data were processed

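RNA of whole eyes was measured on 4 arrays, 1 per genotype. TRI Reagent RNA was made into labelled cDNA, per the labels' protocols. The deposited values are log2 signals, a scale inferred from their range; the submitters' processing notes name RMA and Transcriptome Analysis Console 4.0. RMA by definition equalises the distributions of arrays, so a shift of most genes would not be seen. Array annotation dated 2013 gave 20806 of 75212 probe sets a single symbol (855 had several and 53551 none); 20323 matched the RefSeq gene table. Differences, counts and medians were computed with pandas 2.3.3 under Python 3.11.15, and the calling rule was tested on simulated data. Precision is limited by the number of arrays. The rule for named genes took all members (clone names where useful), lrp5, and up to 4 genes per list with the largest differences; further genes, such as cdh5, axin2, jun and the opsins, were chosen after their values were seen. The members and the 31 lists were chosen with earlier results of these data known. A list synonym that matched a wrong gene was dropped. Alternatives tried were the level filter, the probe set of a gene, scaling, the reference array and the fold threshold.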

Additional observations from a re-analysis of the deposited data

How the results depend on the processing

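With no replicates, the spread between fish limits every value. Against 41 higher and 29 lower genes, the counts were 65 and 61 with no filter on level, 30 and 17 with a filter at the 75th percentile, and 25 and 16 when both arrays had to reach the median. They were 20 and 13 with the mean of the other 3 arrays as reference, 216 and 124 at 1.5-fold, and 10 and 6 at 3-fold. Averaging probe sets, centring, repeated quantile normalization or removal of a lowess trend gave 39 to 41 higher and 27 to 29 lower genes. With the other 3 arrays' mean as reference 27 of the 70 members remained past 2-fold, and in no setting tried did a member change sign. The mean of all probe sets gave paqr3b 0.58 and tmx3a -0.64, and left tubb4bl below the measured level. Of 31 list medians 11 changed sign in some setting, but none under the scaling settings. When both arrays had to reach the median, 9685 genes were tested instead of 10426. The 29 members lost there were those whose lower reading fell short of 6.57. With no filter 19260 genes were tested and with the 75th percentile filter 5406, so those counts cover different sets of genes. For the other settings the cause was not tested. No paired analysis was possible because each genotype has 1 array.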

Other observations

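Of 53551 unnamed probe sets, 10921 reached the measured level on the lrp5-/- or wildtype array; 76 of these were higher in lrp5-/- by 2-fold or more and 83 lower, 1.46% together, with differences from -4.84 to 4.86. They are not described by gene here.

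Some members neighbour each other in RefSeq gene order. On chromosome 6, klf1 (-1.03) and nfil3-5 (-1.03) lay with 1 measured gene between them, although nfil3-5 was low in all 3 mutant arrays and klf1 in lrp5-/- only. On chromosome 24, cldn11b (-1.12) lay next to zgc:194621 (-1.11), and on chromosome 22 the higher gene lamb3 lay next to the lower gene guca1ab.1. Chromosome 25, which carries lrp5, held 2 of the members among 307 measured genes, or 0.651%, beside 0.671% over all measured genes. They were guca1g and bmal1a, which lay 29 and 59 measured genes from lrp5.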
